A study of Mus musculus with 18 samples.

Results

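Lysosomal hydrolases and lysosomal membrane proteins were followed at the mRNA level as mouse bone marrow-derived macrophages (BMMs) became osteoclasts, in cells with and without estrogen receptor α (ERα). The members were 30 genes, taken by name for their place in the lysosome, with cathepsins and proton pump subunits left out, of 16593 genes that carried a probe on the array or belonged to the list. All 45 probes annotated to them were used. They stood for 29 genes, since no probe was matched to Npc1 in the annotation used, so Npc1 was not analysed here. Of these probes 42 were above background on at least 3 arrays and were tested, 36 were above background on all 18 arrays, and 9 genes had more than 1 probe. Each of the 29 genes had at least 1 tested probe.

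The cells came from C57BL/6 mice and were spread over 18 Illumina MouseRef-8 arrays, 3 for each genotype and stage. ERαf/f mice carry floxed and intact ERα alleles, and in ERαΔLysM mice Cre from the lysozyme M locus removes ERα in cells of the myeloid lineage, so the deletion depends on how far lysozyme M is active in a cell. BMMs were grown in 30 ng/ml M-CSF, pre-osteoclasts had 30 ng/ml RANKL beside it for 2 days, and mature osteoclasts had both for 4 days. The study's text gives the mice as 2 to 3 months old and says that all cells of the array experiment, both genotypes included, received E2 (17β-estradiol) for 4 h, which the sample labels leave out, so no comparison here sets E2 against vehicle. The study's text says that BMMs for culture were obtained from 3 mice of a genotype. Neither source says whether these mice were pooled or whether each gave its own array of a group. The p-values therefore measure the spread between these samples, which may be technical.

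Lysosomes are acidic organelles in which soluble hydrolases break down glycosaminoglycans, glycoproteins, glycogen, sphingolipids and cholesterol esters, while heavily glycosylated membrane proteins line and protect the limiting membrane. Loss of any of many of these enzymes causes a storage disease. In the osteoclast, lysosome-related vesicles fuse with the plasma membrane facing bone, form the ruffled border and release their enzymes into the resorption space. The transcription factor TFEB and its relatives bind E-box letters before many lysosomal genes, and the channel encoded by Mcoln1 lets calcium out of the lysosome.

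The E-box letters CACGTG, which read the same on both strands, were looked for in RefSeq promoter windows (GRCm38.p6) that run from 250 bases before to 50 bases after each gene's start. Of the 30 members 27 had a window. The letters stood in the windows of 8 of these 27 genes (29.6%), namely Lamp1, Mcoln1, Glb1, Naglu, Sgsh, Gaa, Gla and, in the window of an alternative start, Cln3. Over all 27025 genes with a window the share was 8.09%. The longer TCACGTG, which contains the shorter letters, was searched on both strands and was found in 8 of the 27 members and in 4.29% of all genes. The stretches of 80 bases that hold the letters are shown for the 7 members other than Cln3, because these genes went in different directions in the results that follow. The capitals mark CACGTG, and each run reads 5′ to 3′ on the strand of its gene.
Lamp1 (chr8:13159081-13159160, plus strand): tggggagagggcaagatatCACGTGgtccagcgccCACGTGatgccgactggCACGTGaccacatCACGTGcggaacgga
Mcoln1 (chr8:3500439-3500518, plus strand): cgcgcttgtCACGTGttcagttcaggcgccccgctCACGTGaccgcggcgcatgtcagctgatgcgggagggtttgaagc
Glb1 (chr9:114400998-114401077, plus strand): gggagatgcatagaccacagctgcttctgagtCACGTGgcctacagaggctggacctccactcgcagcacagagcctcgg
Naglu (chr11:101070014-101070093, plus strand): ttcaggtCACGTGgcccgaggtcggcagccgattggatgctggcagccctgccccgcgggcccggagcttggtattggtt
Sgsh (chr11:119355511-119355590, minus strand): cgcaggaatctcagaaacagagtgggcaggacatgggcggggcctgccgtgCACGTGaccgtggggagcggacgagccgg
Gaa (chr11:119267803-119267882, plus strand): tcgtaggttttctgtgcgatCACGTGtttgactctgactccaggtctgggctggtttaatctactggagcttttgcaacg
Gla (chrX:134601166-134601245, minus strand): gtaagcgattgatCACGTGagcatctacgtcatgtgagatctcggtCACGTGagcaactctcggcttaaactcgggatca
The Lamp1 window held 4 copies and those of Mcoln1 and Gla held 2, while Glb1, Naglu, Sgsh and Gaa held 1. A match in letters is a description of the window and does not show that a factor binds there.

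Levels are log2 values of the normalized signal of a probe, and a difference is the fitted log2 difference between group means with its standard error (SE). Where a gene had several probes, the brightest stood for it. A probe's brightness depends on its own sequence, so levels of different genes are not set against each other. A gene was called higher or lower when limma's moderated test gave an adjusted p, corrected for 13409 tested probes as Benjamini and Hochberg proposed, of under 0.05. In total RNA from a culture, fewer cells of a type and less RNA per cell cannot be told apart. Mean levels stand as mean ± SD over the 6 arrays of a stage, in the order BMMs, pre-osteoclasts and then mature osteoclasts.

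The targeted gene Esr1, which encodes ERα, was detected on 0 of the 18 arrays by either of its 2 probes, ERαf/f arrays included, so these arrays do not check the deletion. The array signal and the labelled stages were checked next. The median signal of an array ranged from 116.4 to 190.8 and was under 150 on 7 arrays, 6 of them ERαΔLysM, and 10770 to 12031 probes were detected. Osteoclast markers (11 genes, among them Ctsk, Acp5 and Calcr) rose in mature osteoclasts in 10 of the 10 tested, Atp6v0d2 being detected on 0 arrays. Their summed level was 1067 to 1352 in BMMs and 62710 to 92090 at the later stages. Of 8 macrophage markers 7 were tested and all 7 fell. Over all genes 35% were higher and 34.3% lower in mature osteoclasts than in BMMs. Dcstamp, Ocstamp, Car2 and Calcr were detected on 0 BMM arrays, Acp5 and Itgb3 on 1, and Fcgr1 on BMM arrays alone. These genes passed the filter through the stages where they were high. All 11 neutrophil granule markers also fell with the stage, from 14110 to 23210 in BMMs to 2869 to 4799 in mature osteoclasts, where Mpo, Prtn3, Ctsg and Cebpe were detected on 0 arrays. Pf4, the 1 detected gene of 4 erythroid and megakaryocyte markers, fell as well, the summed level of that list going from 5834 to 8655 in BMMs to 331 to 541.5 in mature osteoclasts. Hba-a1, Itga2b and Gata1 were detected on 0 arrays, so this list does not show that such cells were present. None of 5 T and NK cell markers was detected on any array. Of 5 B cell markers Cd79b was detected on 6 and Vpreb1 on 3 of the 6 BMM arrays. Among dendritic cell, mast cell and stromal markers, Zbtb46, Ccr7, Fcer1a and Cxcl12 were detected on 5, 4, 10 and 7 of the 18 arrays. The part of any other cells in the stage differences was not tested.

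In pre-osteoclasts 7 of the 29 measured genes were higher than in BMMs and 14 were lower, where 30.8% of all 9088 genes tested were higher and 27% were lower. With arrays scaled only to a common median the split was 3 higher and 12 lower. Over all 13409 tested probes that scaling gave 2075 higher and 3439 lower, against 4033 and 3475 in the main fit. Fuca1 is counted among the lower genes, and it passed the filter only through the 3 ERαf/f BMM arrays, so that without it 13 were lower. In mature osteoclasts 15 were higher than in BMMs and 9 lower, against 35% and 34.3% of all genes, and without Fuca1 8 were lower. From pre-osteoclasts to mature osteoclasts 20 rose and 4 fell, against 28.1% and 30.1% of all genes. The median difference of the members was −0.21 in the first comparison, 0.19 in the second and 0.60 in the third, with medians over all genes of 0.04, 0.03 and 0.00. Counted within a genotype, mature osteoclasts had 13 genes higher and 9 lower than BMMs in ERαf/f cells (30.6% and 30.2% of all genes) and 13 higher and 7 lower in ERαΔLysM cells (29.7% and 29.6%).

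**Figure D1:**
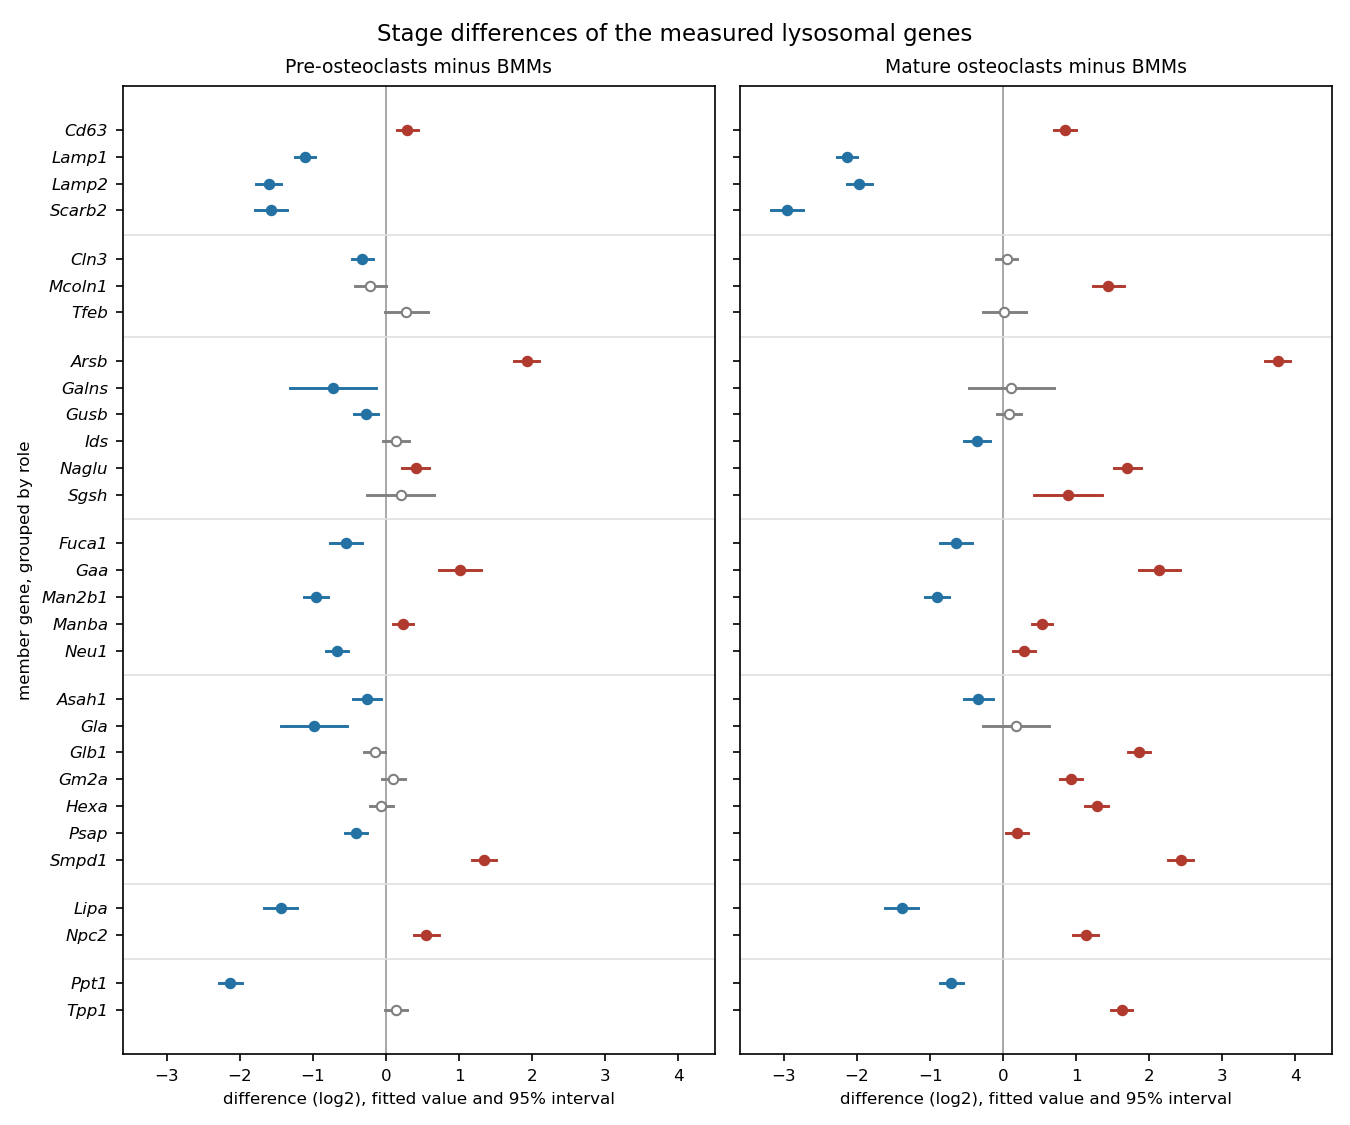
Fitted log2 differences (points) with 95% intervals (bars) of the 29 measured members, pre-osteoclasts minus BMMs on the left and mature osteoclasts minus BMMs on the right, with the genes grouped by role, and red for higher, blue for lower and open gray for not past the threshold. Arsb lies farthest to the right at 3.75 and Scarb2 farthest to the left at −2.95 in mature osteoclasts.

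Among the membrane glycoproteins, the major structural proteins of the lysosomal membrane fell while the tetraspanin Cd63 rose. Of the 4 genes 3 were lower in mature osteoclasts than in BMMs, where 34.3% of all genes were lower. The largest fall was that of Scarb2, which encodes a receptor that carries β-glucocerebrosidase to the lysosome. Scarb2 on the ERαf/f arrays read 9.87, 9.91 and 9.89 as BMMs, 8.70, 8.22 and 8.43 after 2 days of RANKL, and 6.75, 6.96 and 7.13 after 4 days. Scarb2 on the ERαΔLysM arrays read 9.75, 9.66 and 10.03, then 8.27, 8.14 and 7.94, then 7.06, 6.78 and 6.72. The stages did not overlap on any array, and each step took the level further down. The difference between mature osteoclasts and BMMs was −2.95 (SE 0.10, 7.74-fold lower, adjusted p = 1.61e-13 by limma).

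Lamp1 and Lamp2 encode the most abundant glycoproteins of the lysosomal membrane. Lamp1 on the ERαf/f arrays read 13.65, 13.71 and 13.76 as BMMs, 12.67, 12.74 and 12.51 after 2 days of RANKL, and 11.52, 11.51 and 11.66 after 4 days. Lamp1 on the ERαΔLysM arrays read 13.90, 13.76 and 13.86, then 12.78, 12.63 and 12.68, then 11.70, 11.77 and 11.64. It fell by about the same amount at each step, and no array of one stage reached the range of another. The fall from BMMs to mature osteoclasts was 4.40-fold (difference −2.14, SE 0.07, adjusted p = 2.87e-14 by limma). Its promoter window was the one with 4 E-box copies.

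For Lamp2 most of the fall was already there on day 2. Lamp2 on the ERαf/f arrays read 13.38, 13.69 and 13.50 as BMMs, 11.83, 11.69 and 11.74 after 2 days of RANKL, and 11.48, 11.38 and 11.39 after 4 days. Lamp2 on the ERαΔLysM arrays read 13.57, 13.18 and 13.28, then 12.00, 11.95 and 11.76, then 11.54, 11.46 and 11.55. The first step was a difference of −1.60 and the second one of −0.36 (adjusted p = 0.00132 by limma), which was no longer past the threshold with arrays scaled to a common median (adjusted p = 0.347). All 4 Lamp2 probes were lower in mature osteoclasts than in BMMs, by differences from −1.95 to −2.21. Cd63, by contrast, rose at each step (13.96 ± 0.11, 14.25 ± 0.06 and 14.80 ± 0.07, SD, n = 6). Its 3 probes were higher in mature osteoclasts by 0.85 to 1.04.

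Of the channel, transporter-like protein and transcription factor, Mcoln1 was past the threshold between mature osteoclasts and BMMs, and Cln3 and Tfeb were not. Mcoln1 on the ERαf/f arrays read 7.60, 7.68 and 7.41 as BMMs, 7.09, 7.29 and 7.30 after 2 days of RANKL, and 8.81, 8.84 and 8.89 after 4 days. Mcoln1 on the ERαΔLysM arrays read 7.23, 7.30 and 7.38, then 7.41, 7.01 and 7.24, then 8.57, 9.11 and 9.02. BMMs and pre-osteoclasts overlapped, and every mature osteoclast array lay above both. The rise came in the second step, at 1.65 (SE 0.10, adjusted p = 7.22e-10 by limma), and the difference between mature osteoclasts and BMMs was 1.44. Cln3, which encodes a membrane protein missing in juvenile Batten disease, read 11.29 ± 0.09, 10.96 ± 0.10 and 11.34 ± 0.10 (SD, n = 6), lower in the middle stage and not past the threshold between the ends (difference 0.05, adjusted p = 0.52 by limma).

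Tfeb itself was near background. It was detected on 4 of the 18 arrays, 3 of pre-osteoclasts and 1 of mature osteoclasts, and its second probe on none. Tfeb on the ERαf/f arrays read 5.19, 5.15 and 5.09 as BMMs, 5.26, 5.16 and 5.59 after 2 days of RANKL, and 5.01, 4.82 and 4.96 after 4 days. Tfeb on the ERαΔLysM arrays read 4.90, 5.16 and 5.22, then 5.33, 5.31 and 5.73, then 5.88, 5.24 and 4.90. These values overlap between all stages, and at this signal a stage difference in Tfeb was not detectable. The difference between mature osteoclasts and BMMs was 0.02 (SE 0.14, adjusted p = 0.93 by limma), and in a fit without the first ERαΔLysM mature osteoclast array, the one with 5.88, it was −0.12.

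**Figure D2:**
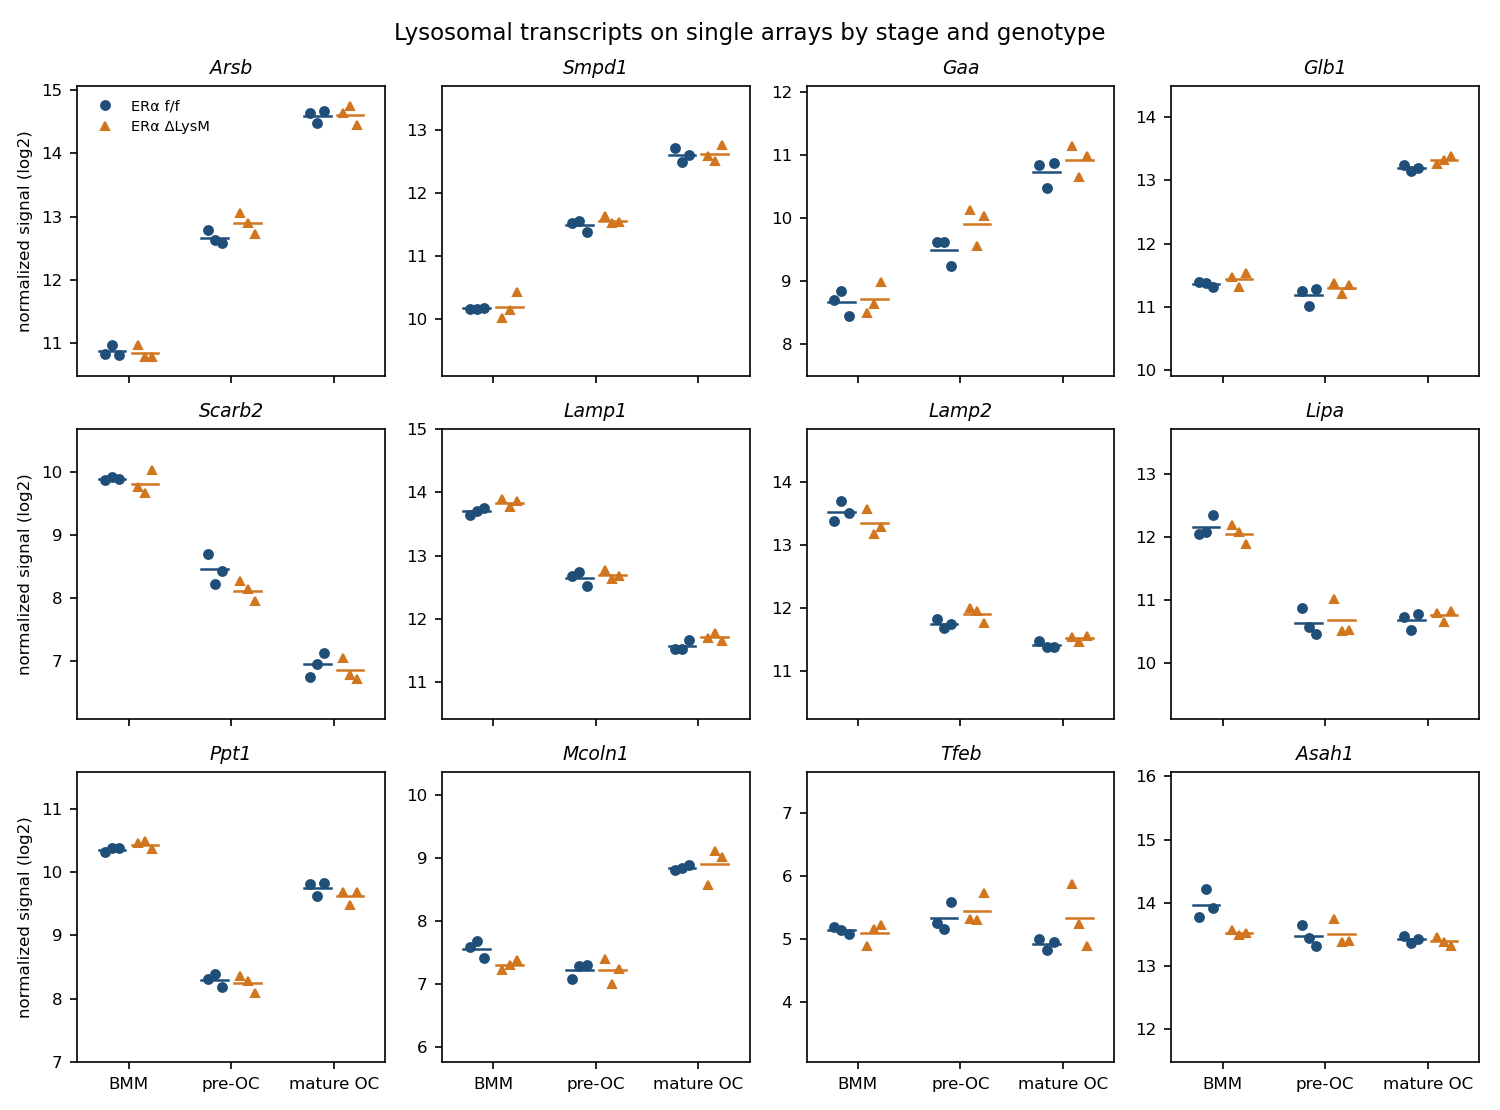
Normalized log2 signal of 12 lysosomal genes on the 18 arrays (y axis, each panel spanning the same number of log2 units) by stage (x axis), with ERαf/f as circles, ERαΔLysM as triangles and a line at the mean of each 3 arrays. Arsb climbs from about 10.85 to 14.61, Scarb2 descends from 9.85 to 6.90, Ppt1 dips to 8.27 in pre-osteoclasts, and in the Asah1 panel the BMM points of the genotypes do not overlap.

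Among the 6 enzymes of glycosaminoglycan breakdown, 3 were higher in mature osteoclasts than in BMMs and 1 was lower. In that comparison 35% of all genes were higher and 34.3% lower. Arsb, which encodes the arylsulfatase that removes sulfate from dermatan and chondroitin sulfate, had the largest rise of all members. Arsb on the ERαf/f arrays read 10.82, 10.97 and 10.80 as BMMs, 12.79, 12.63 and 12.57 after 2 days of RANKL, and 14.65, 14.47 and 14.67 after 4 days. Arsb on the ERαΔLysM arrays read 10.97, 10.78 and 10.78, then 13.05, 12.89 and 12.73, then 14.63, 14.76 and 14.46. The stages were far apart, and on this brightest probe the steps were of similar size, 1.93 and 1.83. The difference between mature osteoclasts and BMMs was 3.75 (SE 0.08, 13.5-fold higher, adjusted p = 4.16e-16 by limma). The second Arsb probe gave 3.55, a size limited by the background, since it was detected on 2 of 6 BMM arrays. Its stage means were 5.39, 6.48 and 8.94, with the larger step second and the first limited by that background.

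Naglu and Sgsh, which encode enzymes of heparan sulfate breakdown, were both higher in mature osteoclasts. Naglu rose at each step (8.97 ± 0.17, 9.39 ± 0.18 and 10.67 ± 0.07, SD, n = 6), with a difference of 1.70 between the ends. Sgsh read 7.06 ± 0.39, 7.26 ± 0.47 and 7.95 ± 0.48, a difference of 0.89 with a wide SE of 0.22. Without the 7 dim arrays the Sgsh difference was 0.58 with an adjusted p of 0.081 by limma, so its call was lost. Ids, which encodes the sulfatase missing in Hunter syndrome, was the 1 enzyme of this group to fall, with stage means of 10.96 ± 0.24, 11.10 ± 0.13 and 10.60 ± 0.11 (difference between the ends −0.36, SE 0.08).

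The remaining pair, Galns and Gusb, was lower in pre-osteoclasts and was not called between mature osteoclasts and BMMs. Galns, an enzyme of keratan sulfate breakdown, read 6.86 ± 0.47, 6.13 ± 0.65 and 6.97 ± 0.54 (SD, n = 6), and its fall in pre-osteoclasts (difference −0.73, adjusted p = 0.0342 by limma) lost its call when any of 6 single arrays was left out. Those were replicates 2 and 3 of ERαf/f BMMs, replicate 3 of ERαf/f pre-osteoclasts, replicates 1 and 3 of ERαΔLysM BMMs and replicate 3 of ERαΔLysM pre-osteoclasts, with adjusted p from 0.0555 to 0.0995, and without the 7 dim arrays it was 0.202. Gusb, which encodes β-glucuronidase, read 14.25 ± 0.11, 13.98 ± 0.15 and 14.33 ± 0.10 at the 3 stages. One of its 2 other probes was called higher in mature osteoclasts than in BMMs (0.24), while the brightest was not (0.08).

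Of the 5 enzymes of glycoprotein and glycogen breakdown, 3 were higher in mature osteoclasts than in BMMs and 1, Man2b1, was lower. Fuca1, also called lower, was detected in ERαf/f BMMs alone. The shares over all genes were 35% higher and 34.3% lower. Gaa, which encodes the acid α-glucosidase that degrades glycogen, rose most. Gaa on the ERαf/f arrays read 8.71, 8.84 and 8.45 as BMMs, 9.62, 9.62 and 9.24 after 2 days of RANKL, and 10.83, 10.48 and 10.87 after 4 days. Gaa on the ERαΔLysM arrays read 8.50, 8.64 and 8.99, then 10.13, 9.56 and 10.04, then 11.14, 10.66 and 10.99. No stage overlapped with another, and the arrays of a stage spread more than for Arsb. The difference between mature osteoclasts and BMMs was 2.14 (SE 0.13, 4.40-fold higher, adjusted p = 3.1e-10 by limma).

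The mannosidases went opposite ways. Man2b1, for α-mannosidase, fell in the first step (13.14 ± 0.09, 12.19 ± 0.17 and 12.24 ± 0.15, SD, n = 6), with a difference of −0.90 between the ends. Manba, for β-mannosidase, rose at each step (11.13 ± 0.08, 11.36 ± 0.10 and 11.66 ± 0.07), with a difference of 0.53, with 0.44 from its second probe. Neu1, for the lysosomal sialidase, was lower in pre-osteoclasts by 0.67 and higher in mature osteoclasts than in BMMs by 0.29. The latter call was lost without the dim arrays (adjusted p = 0.0524 by limma) and with median-scaled arrays (adjusted p = 0.143). Fuca1, for α-fucosidase, was detected on 3 arrays, all of ERαf/f BMMs, and so passed the filter through that group alone. Its fall to pre-osteoclasts was at least 1.10-fold when the levels below detection were raised to the detection limit, and to mature osteoclasts no bound above 1 could be given.

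Among the 7 genes of sphingolipid breakdown, 5 were higher in mature osteoclasts than in BMMs and 1 was lower, against 35% and 34.3% of all genes. Smpd1 encodes acid sphingomyelinase. Smpd1 on the ERαf/f arrays read 10.16, 10.16 and 10.18 as BMMs, 11.53, 11.55 and 11.39 after 2 days of RANKL, and 12.71, 12.49 and 12.60 after 4 days. Smpd1 on the ERαΔLysM arrays read 10.02, 10.14 and 10.42, then 11.63, 11.52 and 11.54, then 12.59, 12.51 and 12.77. It climbed at each step with no overlap between stages. The difference between mature osteoclasts and BMMs was 2.43 (SE 0.08, 5.38-fold higher, adjusted p = 5.86e-14 by limma), and its other probes gave 2.97 and 3.29.

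Glb1, which encodes acid β-galactosidase, passed the threshold in the second step and not in the first. Glb1 on the ERαf/f arrays read 11.39, 11.38 and 11.31 as BMMs, 11.25, 11.01 and 11.28 after 2 days of RANKL, and 13.25, 13.15 and 13.19 after 4 days. Glb1 on the ERαΔLysM arrays read 11.47, 11.31 and 11.53, then 11.37, 11.20 and 11.34, then 13.26, 13.32 and 13.38. BMMs and pre-osteoclasts overlapped, and all 6 mature osteoclast arrays lay well above them. The first step was −0.16 (95% interval −0.31 to −0.0074, adjusted p = 0.0697 by limma) and the second 2.02, so that mature osteoclasts were 3.63-fold above BMMs.

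Hexa and Gm2a, which encode a subunit of the hexosaminidase and the activator that presents GM2 ganglioside to it, had the same course. Hexa read 12.36 ± 0.10, 12.29 ± 0.12 and 13.64 ± 0.10, and Gm2a read 12.06 ± 0.10, 12.16 ± 0.09 and 12.99 ± 0.09 (SD, n = 6). Neither was called in the first step, and both rose in the second, by 1.35 and 0.83. Psap, the precursor of the saposin activators, was lower in pre-osteoclasts (−0.41) and slightly higher in mature osteoclasts than in BMMs (0.19, adjusted p = 0.0268 by limma). The latter call was lost when any of 5 single arrays was left out, namely replicate 3 of ERαf/f BMMs, replicate 3 of ERαf/f mature osteoclasts, replicates 1 and 3 of ERαΔLysM BMMs and replicate 2 of ERαΔLysM mature osteoclasts (adjusted p from 0.0566 to 0.067). Gla, for α-galactosidase, was dimmer, detected on 15 arrays, with 3 of 6 in pre-osteoclasts. It read 6.35 ± 0.50, 5.36 ± 0.35 and 6.52 ± 0.25, lower in pre-osteoclasts by 0.98, a size limited by the background.

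The probes of Asah1, which encodes acid ceramidase, disagreed. The brightest was lower in mature osteoclasts than in BMMs (−0.34, SE 0.09, adjusted p = 0.00367 by limma, and 0.0576 without the dim arrays), and a second probe, also detected on all 18 arrays, was higher (0.57, SE 0.14, adjusted p = 0.00207 by limma). The remaining one was detected on 0 arrays. The direction for Asah1 therefore depends on the probe and is left unsettled. In this comparison no other member had probes called in opposite directions, and a second Ids probe, detected on 6 of the 18 arrays, lay on the other side of 0 from the brightest without passing the threshold.

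**Figure D3:**
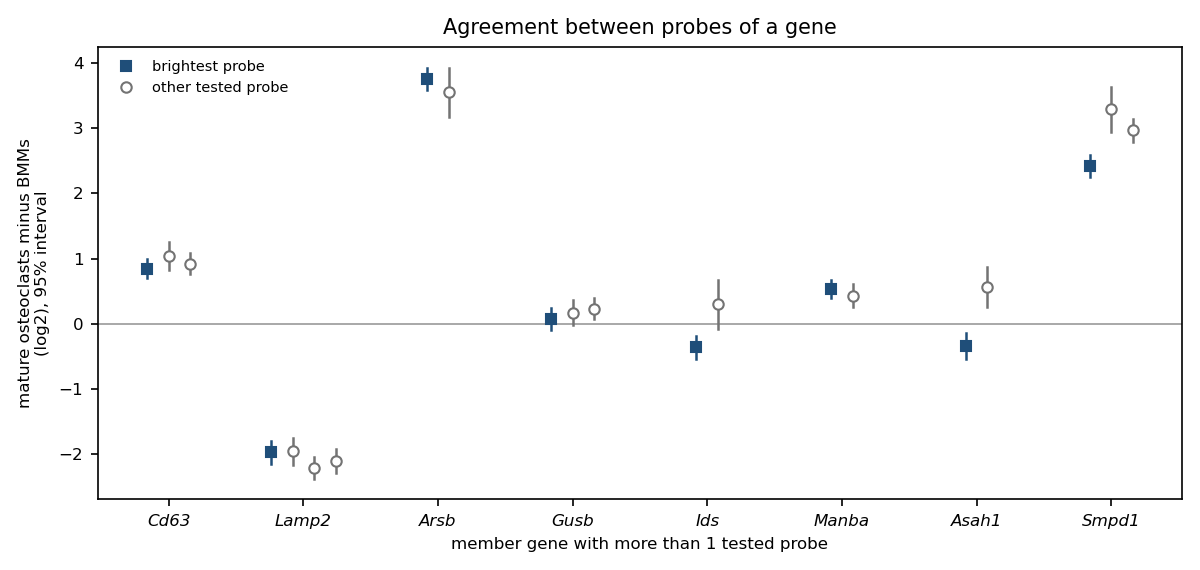
Fitted log2 difference between mature osteoclasts and BMMs (y axis) with its 95% interval for each tested probe of the 8 members with more than 1 tested probe (x axis), with filled squares for the brightest probes and open circles for the others. The probes of Lamp2, Arsb, Smpd1, Cd63 and Manba lie on the same side of 0, and those of Asah1 lie on opposite sides at −0.34 and 0.57.

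The 2 measured genes of cholesterol handling diverged. Lipa encodes the acid lipase that cleaves cholesterol esters. Lipa on the ERαf/f arrays read 12.04, 12.07 and 12.35 as BMMs, 10.87, 10.58 and 10.47 after 2 days of RANKL, and 10.73, 10.53 and 10.77 after 4 days. Lipa on the ERαΔLysM arrays read 12.18, 12.08 and 11.89, then 11.01, 10.51 and 10.53, then 10.80, 10.65 and 10.82. The later stages overlapped with each other and both lay below every BMM array. The fall from BMMs to mature osteoclasts was 2.61-fold (difference −1.39, SE 0.11, adjusted p = 4.8e-09 by limma). Npc2, which encodes the soluble cholesterol carrier of the lysosome, rose at each step (12.03 ± 0.21, 12.59 ± 0.14 and 13.16 ± 0.08, SD, n = 6), with a difference of 1.13.

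Ppt1 and Tpp1, whose loss causes infantile and late infantile Batten disease, encode a thioesterase that strips palmitate from proteins and a peptidase. Ppt1 on the ERαf/f arrays read 10.31, 10.38 and 10.39 as BMMs, 8.31, 8.39 and 8.19 after 2 days of RANKL, and 9.82, 9.63 and 9.83 after 4 days. Ppt1 on the ERαΔLysM arrays read 10.46, 10.49 and 10.36, then 8.36, 8.29 and 8.08, then 9.69, 9.49 and 9.68. The level dropped steeply on day 2 and came most of the way back by day 4, with no overlap between stages. The first step was −2.13 (SE 0.07) and the second 1.42 (SE 0.07). Tpp1 did not share the dip below BMMs, reading 10.25 ± 0.16, 10.39 ± 0.11 and 11.87 ± 0.07 (SD, n = 6), a difference of 1.62 between mature osteoclasts and BMMs.

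Many members lay below the mean of the 2 other stages in the middle stage, which does not make them lower than both. Against the mean of BMMs and mature osteoclasts, pre-osteoclasts had 17 of the 29 genes lower (16 without Fuca1) and 1 higher, where 24.7% of all genes tested were lower and 28.7% higher. The median was −0.35 over the members and 0.01 over all genes. The lowest values after Ppt1 (−1.77, SE 0.06) were those of Glb1 (−1.09), Gla (−1.07), Mcoln1 (−0.93) and Neu1 (−0.81). Ids was the 1 gene called above that mean (0.31), a count that became 0 with median-scaled arrays. Some of the 17, such as Glb1 and Mcoln1, stayed near the BMM level and rose later, and others, such as Lamp2 and Lipa, fell early and changed little later. Naglu, also among the 17, was called higher in pre-osteoclasts than in BMMs (0.41, adjusted p = 0.00069 by limma). This contrast therefore holds more than 1 course. The count of lower genes was 16 or 17 with any single array left out, 16 with median-scaled arrays and 14 without the 7 dim arrays.

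**Figure D4:**
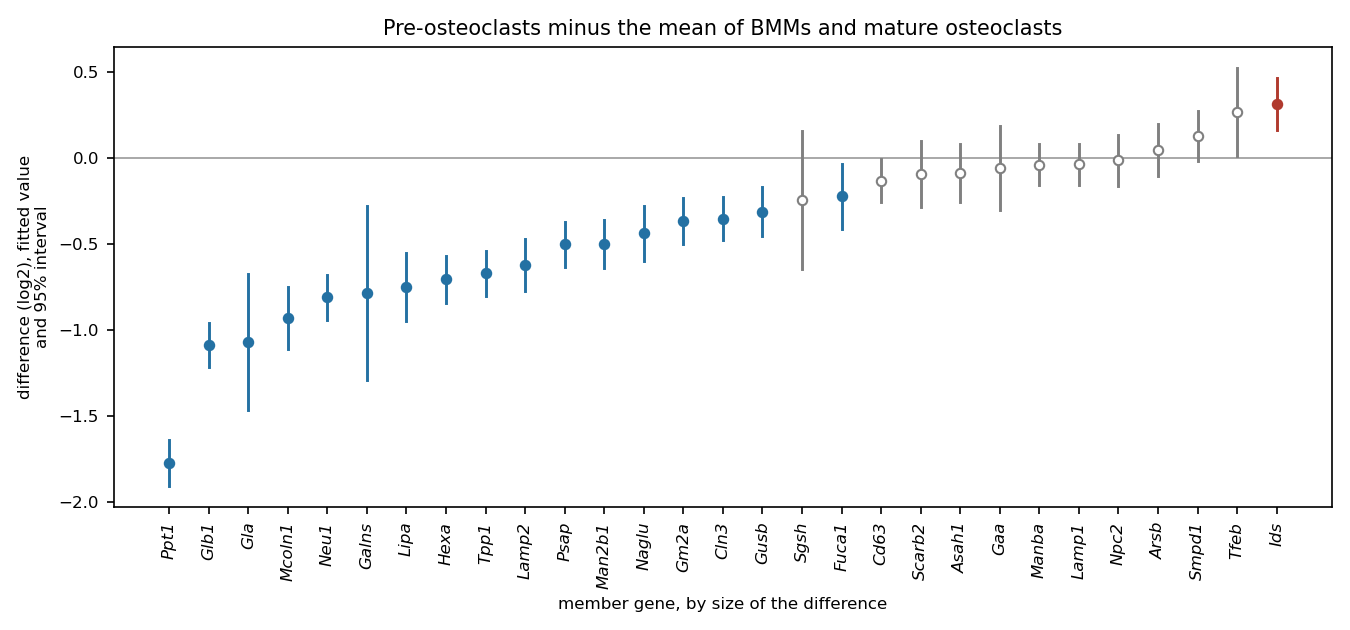
Fitted log2 difference (y axis, points with 95% intervals as bars) between pre-osteoclasts and the mean of BMMs and mature osteoclasts for the 29 measured members (x axis, ordered by size), with blue for the 17 genes that were lower, red for the 1 that was higher and open gray for those not past the threshold. Ppt1 stands apart at −1.77.

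The study was made to compare cells with and without ERα, and at no stage did any of the 29 measured members pass the threshold between the genotypes. Cathepsins are not members, and Ctsk, 1 of the osteoclast markers, was called higher in ERαΔLysM BMMs (0.61, SE 0.11, adjusted p = 0.0351 by limma). Members called numbered 0 of 29 in BMMs, where 0.297% of all genes were called, 0 in pre-osteoclasts (0.077%) and 0 in mature osteoclasts (0.176%). At an unadjusted p under 0.05 by limma there were 5, 2 and 1 members, against 13.8%, 7.77% and 6.44% of all genes. The medians were −0.02, 0.12 and 0.07, and those of all genes were within 0.0012 of 0. With 1 array left out they ranged from −0.08 to 0.02, 0.04 to 0.12 and 0.05 to 0.10. The BMM median was above 0 without replicate 2 of ERαf/f BMMs or without replicate 1 or 2 of ERαΔLysM BMMs. The pre-osteoclast median was 0.04 without replicate 1 of ERαΔLysM pre-osteoclasts and 0.07 without replicate 2 of the ERαf/f ones. The difference between the genotypes was itself compared between stages, and 0 members were called in each of those 3 comparisons, where 0.077%, 0.066% and 0.011% of all genes were called. At an unadjusted p under 0.05 by limma there were 4, 3 and 0 members, against 9.69%, 9.75% and 4.32% of all genes. A missed threshold does not show equal levels. The 95% interval of the genotype difference lay within 0.5 log2 units of 0 for 21, 23 and 24 of the 29 genes at the 3 stages, and within 1 unit for 28, 27 and 27. Galns at every stage and Sgsh at the later ones had wider intervals.

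In BMMs Fuca1 had the smallest p-value and Asah1 came next. Fuca1 entered the fit only through its detection in ERαf/f BMMs, so its values are a description of a gene chosen by that group. It read 5.86, 5.51 and 5.94 in ERαf/f BMMs and 5.16, 5.31 and 5.33 in ERαΔLysM BMMs, which were all below detection, and it was not past the threshold (adjusted p = 0.165 by limma). Asah1 read 13.77, 14.22 and 13.91 in ERαf/f BMMs and 13.56, 13.48 and 13.52 in ERαΔLysM BMMs. These groups did not overlap (difference −0.44, SE 0.13, unadjusted p = 0.00362, adjusted p = 0.166 by limma). Asah1 was past the threshold without background correction (adjusted p = 0.0467), with a trended robust prior (0.0385) and with median-scaled arrays (0.0306), and its second probe had a difference of 0.17 in the other direction. Over all 13409 tested probes 188, 133 and 786 were called between the genotypes in these settings, against 43 in the main fit. Of the ERαΔLysM BMM arrays 2 of 3 were dim and none of the ERαf/f ones, and the summed level of the neutrophil markers was 20940 to 23210 in ERαΔLysM BMMs and 14110 to 15670 in ERαf/f BMMs, with 1 of the 11, Ltf, called higher. The part of both in these values was not tested.

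In pre-osteoclasts the smallest p-values were those of Scarb2 (difference −0.33, unadjusted p = 0.0371, adjusted p = 0.58 by limma) and Gaa (0.42, unadjusted p = 0.0427, adjusted p = 0.591 by limma), and the array values given for both genes overlapped between the genotypes. In mature osteoclasts Man2b1 read 12.11, 12.06 and 12.18 in ERαf/f cells and 12.45, 12.30 and 12.34 in ERαΔLysM cells, without overlap (difference 0.25, unadjusted p = 0.0377, adjusted p = 0.694 by limma). Tfeb was above background on 1 of the 6 mature osteoclast arrays, and no size is given for its difference.

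**Figure D5:**
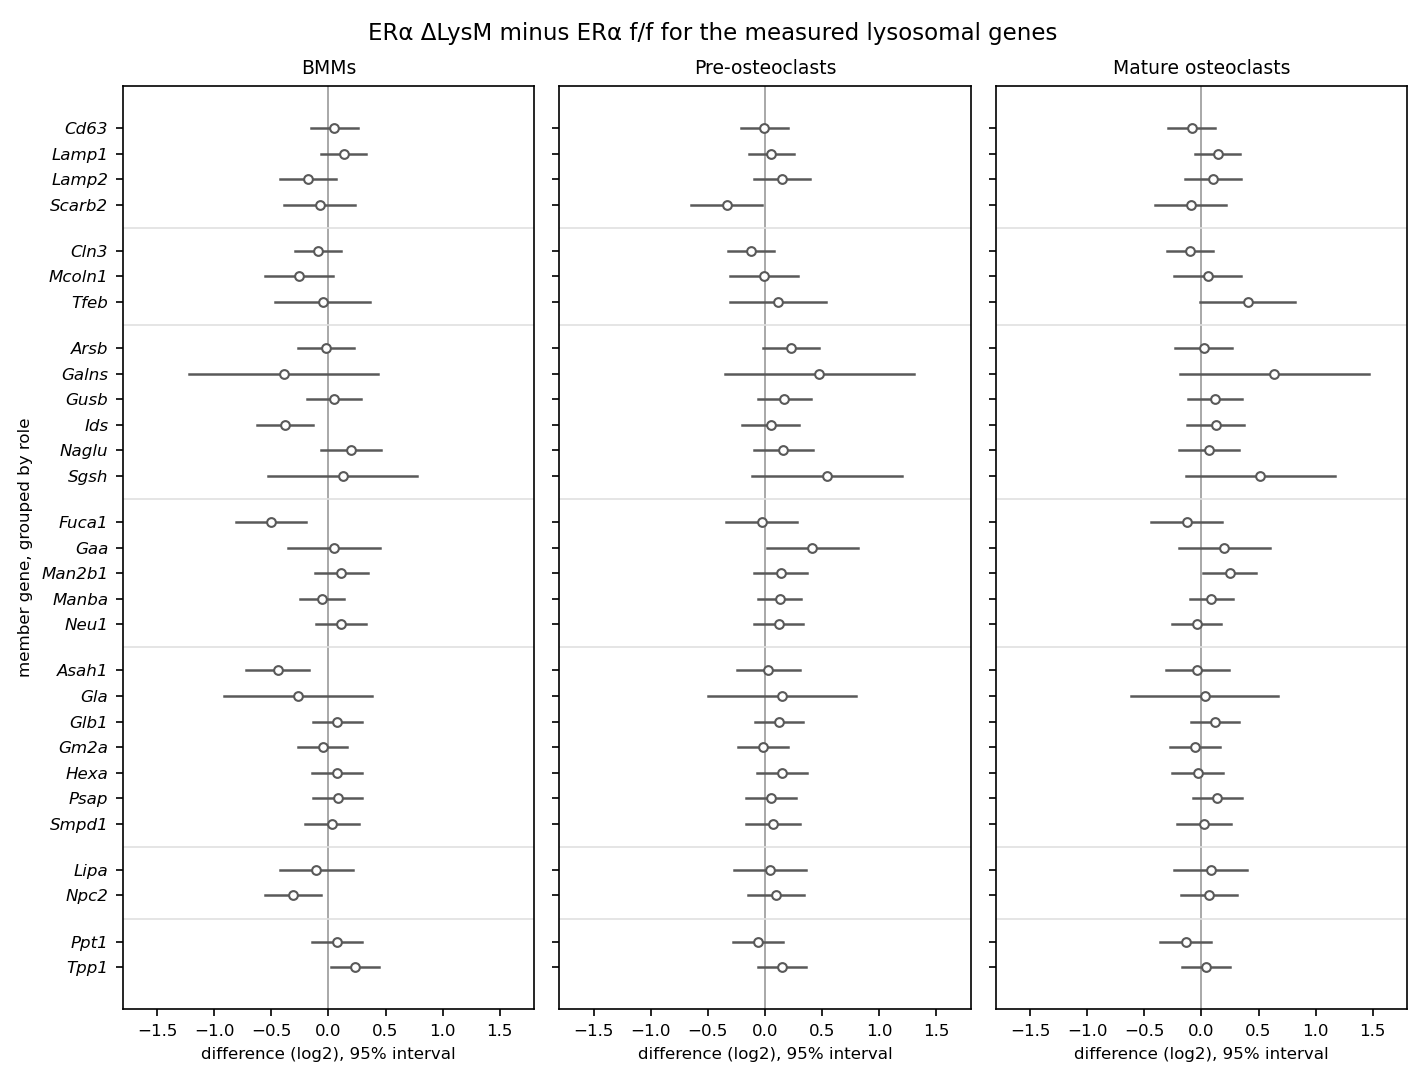
Fitted log2 difference between ERαΔLysM and ERαf/f cells (x axis, points with 95% intervals as bars) for the 29 measured members in BMMs, pre-osteoclasts and mature osteoclasts, grouped by role. None is past the threshold, and the widest intervals are those of Galns and Sgsh.

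Other genes, from lists of lysosomal and related proteins written out beside the members, were called in both directions between mature osteoclasts and BMMs. Where each product lies in the cell was not checked. Their counts stand against 35% of all genes higher and 34.3% lower in that comparison, and nothing particular to a list is read from them. Of 17 other hydrolases and activators tested, 7 were higher and 8 lower in mature osteoclasts than in BMMs. Arsg, counted among the 7, was detected on 4 mature osteoclast arrays and on no others, so it passed the filter through that stage alone. Ifi30, a thiol reductase, and Hyal2, a hyaluronidase, rose by 2.29 and 1.85, and Smpdl3b, a relative of acid sphingomyelinase, and Lgmn, for legumain, fell by 4.89 and 1.51. Of 27 tested genes on a list of lysosomal and related membrane proteins 11 were higher and 10 lower. Laptm4b, counted among the 11, was detected on 0 BMM arrays and passed the filter through the later stages. Abca2, a lipid transporter above background on 3 of 6 BMM arrays, and Plekhm1, an adaptor needed for lysosome positioning in osteoclasts, rose by 1.90 and 1.45. Slc15a3, a peptide and histidine transporter, fell by 5.35, and Slc36a1, an amino acid transporter undetected in mature osteoclasts, fell at least 2.38-fold.

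Of 16 genes that sort enzymes to the lysosome 6 were higher and 6 lower. Again the comparison was mature osteoclasts against BMMs, with 35% of all genes higher and 34.3% lower. Gnptab, for the enzyme that starts the mannose phosphate tag, and Ap3d1, for an adaptor subunit, rose by 2.20 and 1.13, and Sort1, for the sorting receptor sortilin, and Ap3m1, for another adaptor subunit, fell by 4.75 and 1.18. Of 19 genes of the TFEB family and its nutrient-sensing regulators 6 were higher and 5 lower. Rraga, counted among the 5, was detected on 5 BMM arrays and on no others, so it passed the filter through BMMs alone. Rragd, for a Rag GTPase, was called higher from a BMM level above background on 1 of 6 arrays, so no size is given, and Tfec, a TFEB relative, rose by 0.95. Tfe3, another relative, fell by 0.83, and Rragb, undetected in mature osteoclasts, fell at least 1.61-fold. In all 4 lists 0 genes were called between the genotypes at any stage.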

How the data were processed

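Biotin-labelled RNA was hybridized to Illumina MouseRef-8 arrays. The authors deposited mean bead intensity values per probe, neither background subtracted nor normalized, each with a detection p-value deposited beside it, and log2 values that the authors normalized with lumi. The study's text names version 1 of the array, and the probe annotation used is that of version 2. Of 26529 features, 832 without an ID were left out. The deposited intensity values went through neqc of limma 3.58.1 (R 4.3.3, offset 16), which corrects the background, takes log2 and equalizes quantiles. The result and the authors' log2 values were at most 0.0197 apart for member probes. Probes entered the fit when 3 or more arrays had a detection p below 0.05, which left 13409, and these were fitted with lmFit and eBayes on 6 group means (12 residual and 3.69 prior degrees of freedom), with Benjamini-Hochberg adjustment. The median SE was 0.171 for a genotype difference and 0.121 for a stage difference, and the number of arrays limits the precision.

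The members and lists were chosen with earlier results of these data known. Single-array values were given for the 4 highest and 4 lowest members between mature osteoclasts and BMMs, the largest departure in pre-osteoclasts, Tfeb and Mcoln1, and the smallest p-values between genotypes. In the other lists the 2 highest and 2 lowest called genes were named. Where a group was below detection, its levels were raised to the lowest detected level of each array and the fold was given as a bound. The alternatives were the authors' values, no background correction, median-centred arrays, other filters, priors, weights, thresholds and probe summaries, a replicate block, fits of the compared groups only and leaving out each array. Array brightness as a term, leaving out Fuca1 and leaving out the arrays with a median signal under 150 were alternatives chosen after seeing the data. Before use, the main fit was tested on simulated data with known changes, for the genotype difference in BMMs only. The other comparisons and the alternative fits were not tested in this way. Figures were drawn with matplotlib 3.10.9.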

Additional observations from a re-analysis of the deposited data

How the results depend on the processing

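The counts of members called kept within 1.5 times their values in the 3 stage comparisons under every alternative, from 15 to 23, 20 to 24 and 19 to 25, and leaving out 1 array gave 19 to 23, 23 to 24 and 24 to 25. Between genotypes the count of 0 in BMMs became 1 without background correction and with a trended robust prior (Asah1), 1 with array weights (Ids, adjusted p = 0.0419 by limma) and 3 with median-centred arrays (Ids, Npc2 and Asah1, all lower), where the median of all probes moved to −0.44 and that of the members to −0.56. Over all tested probes the calls went from 43 to 188, 133, 296 and, with median-centred arrays, 786. With that scaling the member medians in the other genotype comparisons were −0.15 and −0.12, and those of the stage comparisons −0.40, 0.33 and 0.81, with all probes at −0.09, −0.14 and −0.03. The pre-osteoclast genotype median was 0.22 without the dim arrays. Between mature osteoclasts and BMMs the median was 0.29 with a stricter filter, 0.28 without the dim arrays and 0.17 to 0.29 with 1 array left out. Between mature osteoclasts and pre-osteoclasts it was 0.42 without background correction and 0.69 with a stricter filter.

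Small differences changed sign. With median-centred arrays these were, in pre-osteoclasts against BMMs, Ids (−0.0771), Tpp1 (−0.0976) and Gm2a (−0.0897), in mature osteoclasts against BMMs, Tfeb (−0.0230), Gla (−0.18), Galns (−0.28) and Cln3 (−0.0664), and in mature osteoclasts against pre-osteoclasts Asah1 (0.21). With the mean of its probes Asah1 was 0.11 against BMMs and 0.39 against pre-osteoclasts. Without the dim arrays Tfeb was −0.10 and Cln3 −0.0056 against BMMs, and Man2b1 −0.0944 and Lipa −0.20 against pre-osteoclasts. Tfeb was −0.0009 without background correction, −0.0041 with array weights and −0.1195 to 0.1246 with 1 array left out, and Galns −0.0677 to 0.2270. The cause was not tested. A replicate block left the counts at 21, 24 and 24 of the stages and at 0 between genotypes. Between the genotypes within a stage, deviations of same-numbered arrays correlated from −0.107 to 0.355 and those of other-numbered arrays from −0.282 to 0.208. The numbers were not taken as pairs. Same-numbered arrays of different stages were not compared in this way, so a culture shared between stages was not checked. Probes near background, such as those of Tfeb and Fuca1, give only bounds.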
